A study of Rattus norvegicus with 3 samples.

Results

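Genes of the Wnt pathway were followed in whole rat testis through 3 ages in the first days after birth. A gene was included when a probe set's RefSeq accession led to a rat symbol for a Wnt ligand, a frizzled or other Wnt receptor, a secreted antagonist or agonist, or a core component of the relay from the receptor to the nucleus. Of 66 such symbols in the RefSeq gene table, 25 were matched on the array, each by 1 probe set, among 9627 named genes and 26419 probe sets in all. The testes came from untreated Wistar-Imamichi rats, a laboratory stock kept by natural mating, on postnatal days 6, 8 and 10, with the day of birth counted as day 1. Total RNA was labelled with Cy3, a green fluorescent dye, and each day had 1 array. The number of animals behind each RNA is not given in the sources used here.

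Wnt proteins are secreted, lipid-modified signals. They bind frizzled receptors at the cell surface, and in the best known branch the signal takes apart a cytoplasmic complex of Axin, Apc, Gsk3 and casein kinase 1 that otherwise marks beta-catenin for destruction; beta-catenin then enters the nucleus and works with Tcf and Lef factors on target genes. Other branches steer cell polarity and calcium without beta-catenin. In the mouse gonad, Wnt4 acts in forming the ovary, and Wnt5a from Sertoli cells helps spermatogonial stem cells to survive in culture.

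A day was measured on 1 array, so the differences have no replicate check and carry no p-value, and the effects of age, of the animals and of the array cannot be told apart. Levels are log2 intensities, and a difference is the later day's level minus the earlier day's. A level was called above the floor when it passed the array's median over all probe sets (7.78, 7.79 and 7.67 on days 6, 8 and 10). The olfactory and vomeronasal receptors, used as a measure of dim signal, had a 95th percentile of 5.70, 5.60 and 6.11. Genes were compared between 2 days if either day's level passed the floor (called tested here), and 2-fold or more counted as a change. Counts use the measured levels, also where the dimmer day lay under the floor; for a gene named with such a level the fold is given as "at least", against the floor, and can be under 2-fold. Probe sets of the same symbol, present for other genes only, differed in their change by a pooled SD of 0.40 for day 10 against day 6, 0.27 for day 8 against day 6 and 0.43 for day 10 against day 8. In whole testis, fewer cells of a type and less RNA per cell cannot be told apart. Ddx4 of germ cells, Amh of Sertoli cells, Cyp17a1 of Leydig cells and Acta2 of peritubular cells were above the floor on all 3 arrays. Some other markers of these cells were not, and Lhcgr of Leydig cells and Zbtb16 of germ cells were under it on all 3.

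The matched genes were spread unevenly over the pathway. Only 3 of 19 ligands, 7 of 14 receptors and 2 of 10 secreted antagonists had a match, against 12 of 14 relay genes and 1 of 4 nuclear factors. None of the 4 R-spondin agonists, nor the Wnt-modifying enzyme Porcn, was matched. Statements on ligands and antagonists therefore rest on few genes, and the unmatched genes were not analysed here. Of the 25 genes, 19 were above the floor on day 6, 20 on day 8 and 20 on day 10.

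Above the floor on every day were 19 genes: Wnt5a, Dkk3, Lef1, the receptors Fzd1, Fzd2, Fzd3, Fzd8 and Fzd9, and all relay genes except Axin2. Axin2 and Fzd4 were each above it on 1 day, and Wnt4, Wnt7b, Fzd5 and Sfrp4 on none.

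**Figure D1:**
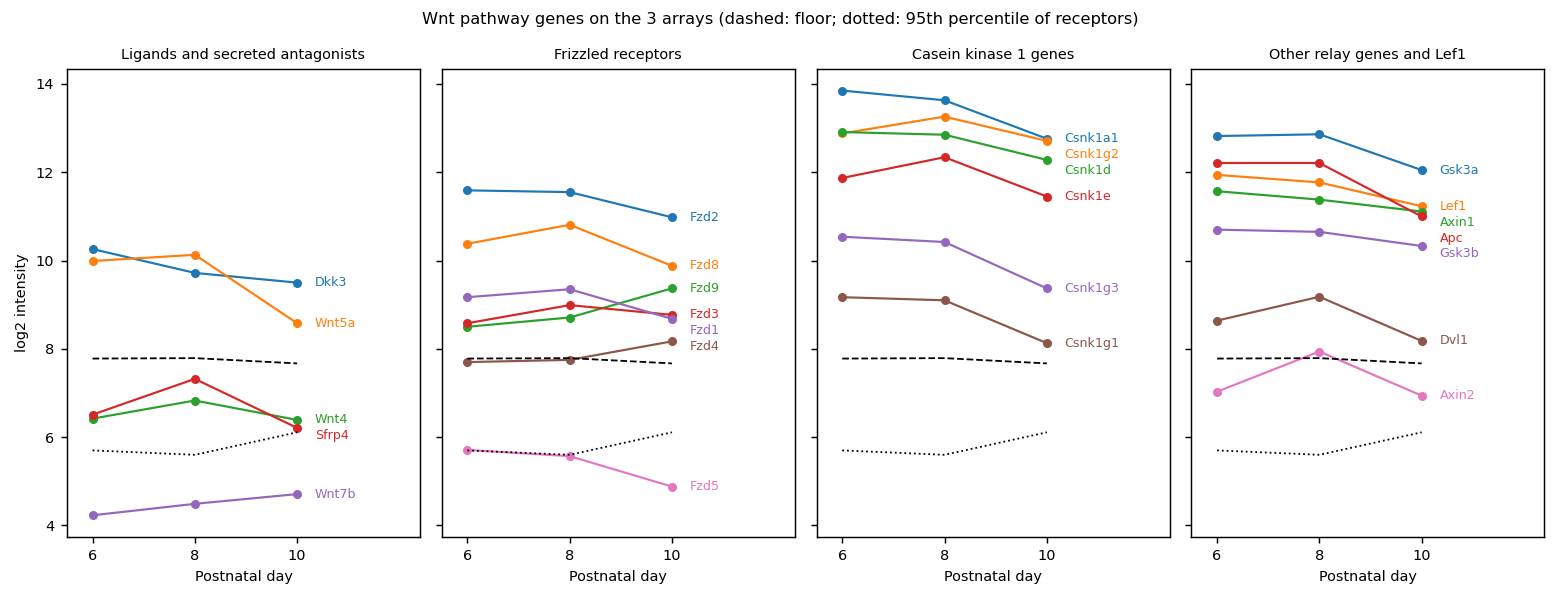
Log2 intensity (vertical axis) of the 25 Wnt pathway genes on postnatal days 6, 8 and 10 (horizontal axis), 1 array per day, with 1 line per gene and a panel per role. The dashed line is the floor and the dotted line the 95th percentile of the olfactory and vomeronasal receptors; Wnt5a lies at 9.99, 10.13 and 8.58, and Fzd9 at 8.50, 8.71 and 9.37.

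Of the Wnt pathway genes tested, Wnt5a had the largest difference between days 10 and 6 and between days 10 and 8. This ligand mostly signals without beta-catenin. Its intensity was 1017, 1118 and 383 on days 6, 8 and 10, or 9.99, 10.13 and 8.58 on the log2 scale. The first 2 arrays were close to each other and the last was well below both. Wnt5a was thus 2.66-fold lower on day 10 than on day 6 (-1.41) and 2.92-fold lower than on day 8 (-1.55), while day 8 against day 6 differed by 0.14. Of all genes tested, 6.36% had a more negative difference between days 10 and 6, and 5.45% between days 10 and 8. Wnt5a was the lowest of 20 and of 21 Wnt pathway genes tested, and the lowest of that many genes is expected to rank low. Over the alternative settings tried, its difference between days 10 and 6 ranged from -1.41 to -1.30.

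The other ligands gave little. Wnt4 had log2 intensities of 6.42, 6.83 and 6.39 on days 6, 8 and 10, under the floor on all 3 days but above the receptors' 95th percentile on each. Wnt7b, a ligand known from lung and kidney development in the mouse, had 4.23, 4.49 and 4.71, below that percentile on every day. No fold is given for either.

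To show the control regions next to the values, the 250 bases before the start site of Wnt5a and of Axin2 are printed below from the RefSeq promoter table (build GRCr8, both on the plus strand). Wnt5a was the 1 ligand above the floor, of 3 matched, and Axin2 is a widely used target gene of the beta-catenin branch. Matches to the core recognised by Tcf and Lef factors are in capitals: CAAAG preceded by a pair of bases that are each A or T, on either strand.
Wnt5a (chr16:3703415-3703664): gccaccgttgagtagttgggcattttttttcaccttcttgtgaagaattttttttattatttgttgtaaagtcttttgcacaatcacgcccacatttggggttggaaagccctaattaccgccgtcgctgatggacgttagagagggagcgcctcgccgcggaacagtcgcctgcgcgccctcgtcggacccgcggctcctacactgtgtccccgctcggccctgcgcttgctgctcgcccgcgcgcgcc
Axin2 (chr10:94398535-94398784): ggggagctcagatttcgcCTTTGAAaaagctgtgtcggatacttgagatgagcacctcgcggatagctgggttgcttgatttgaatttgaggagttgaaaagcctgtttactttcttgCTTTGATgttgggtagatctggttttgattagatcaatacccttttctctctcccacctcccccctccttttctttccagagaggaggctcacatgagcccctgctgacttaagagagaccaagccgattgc
The Wnt5a stretch held 0 matches. The Axin2 stretch held 2, CTTTGAA starting at -232 and CTTTGAT at -132 relative to the start site, both the reverse-strand reading of the core. Of the 25 genes, 17 had an entry in the table, and 2 of these held a match, Axin2 and Gsk3a; of all 33469 promoters, 14.9% held one. A match describes letters and does not show binding.

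The frizzled receptors did not move together. Fzd9 had 8.50, 8.71 and 9.37 on days 6, 8 and 10, highest on day 10, a difference of 0.87 against day 6 (1.83-fold, short of 2-fold). Fzd4, the receptor that also binds norrin in retinal vessels, had 7.70, 7.75 and 8.17 and passed the floor only on day 10, at least 1.31-fold higher than on day 6. Fzd3, known for guiding axons, had 8.58, 8.99 and 8.77. These 3 were the receptors with a positive difference between days 10 and 6 (0.87, 0.47 and 0.19).

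Fzd1, Fzd2 and Fzd8 were lowest on day 10. Fzd1 had 9.17, 9.35 and 8.68 on days 6, 8 and 10, and its near relative Fzd2 had 11.59, 11.55 and 10.98. Fzd8 had 10.38, 10.81 and 9.88, so that the middle day was its highest. Their differences between days 10 and 6 were -0.49, -0.60 and -0.50. Over the 6 receptors tested, 0 were 2-fold changed and the median was -0.15. Each of the 6 kept its sign under every alternative setting. Settings that change only the floor, the probe set used or the casein kinase 1 genes cannot alter these values. Fzd5, related to Fzd8, had 5.71, 5.57 and 4.88, under the floor throughout.

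Of the secreted antagonists, Dkk3, a divergent member of the Dickkopf family, had levels of 10.26, 9.72 and 9.50 on the 3 days. The difference was -0.76 for day 10 against day 6, with -0.54 for day 8 against day 6 and -0.22 for day 10 against day 8. Among the 20 genes tested between days 8 and 6, Dkk3 had the most negative difference, and 5.74% of all genes tested lay below it. The lowest of 20 genes is expected to rank low. Sfrp4, which binds Wnts through a frizzled-like domain, had 6.51, 7.32 and 6.21, under the floor on all 3 days.

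In the cytoplasmic relay, 4 of 11 genes tested were at least 2-fold lower on day 10 than on day 6, against 12.8% of all genes. Relay genes made up 11 of the 20 Wnt pathway genes tested. Each of the 4 passed 2-fold by less than the pooled SD of probe sets. Apc, the scaffold that with Axin holds the destruction complex, had 12.21, 12.21 and 11.00 on days 6, 8 and 10, level on the first pair of arrays and 2.31-fold lower on day 10 than on day 6. Csnk1a1, the kinase that primes beta-catenin for Gsk3, had 13.85, 13.63 and 12.76 and was 2.13-fold lower on day 10 than on day 6. The membrane-bound kinases that act on the coreceptor Lrp6 differed among themselves. Csnk1g3 had 10.54, 10.42 and 9.37 and was 2.24-fold lower, and Csnk1g1 had 9.17, 9.10 and 8.13 and was 2.05-fold lower. Csnk1g2, of the same subfamily, had 12.88, 13.26 and 12.71, a difference of -0.18.

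Other relay genes were short of 2-fold between days 10 and 6. Csnk1d and Csnk1e, close relatives that act on Dishevelled and also on the clock protein Period, had differences of -0.63 and -0.42. Csnk1d had 12.91, 12.85 and 12.28 on days 6, 8 and 10, while Csnk1e was highest on day 8 (11.87, 12.34 and 11.45). Gsk3a had 12.82, 12.86 and 12.05, a difference of -0.77, and its close relative Gsk3b had 10.70, 10.65 and 10.33, a difference of -0.37. Axin1, the main scaffold of the complex, had 11.57, 11.38 and 11.11 (-0.46).

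Dvl1, the Dishevelled protein that takes the signal from frizzled, had 8.64, 9.18 and 8.18 on days 6, 8 and 10. It was highest on the middle day, and 2.01-fold lower on day 10 than on day 8, at the edge of the threshold. Axin2, a scaffold whose gene is itself switched on by beta-catenin, had 7.03, 7.94 and 6.94, above the floor on day 8 only. It was at least 1.11-fold higher on day 8 than on day 6 and at least 1.21-fold lower on day 10 than on day 8. Lef1, the nuclear partner of beta-catenin, had 11.94, 11.77 and 11.23, with a difference of -0.71 between days 10 and 6.

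Between days 10 and 6, 5 of 20 Wnt pathway genes tested were at least 2-fold lower, against 12.8% of all 13955 genes tested, and 0 were at least 2-fold higher, against 8.57%. The 5 were Wnt5a, Apc, Csnk1a1, Csnk1g1 and Csnk1g3. A negative difference was found in 17 of the 20, and in 48.7% of all genes. The median was -0.55, against 0.023 over all genes. By role, all 11 relay genes tested were negative (median -0.63, 4 of them at least 2-fold lower), while the receptors were 3 positive and 3 negative. Only Wnt5a passed the 2-fold line by more than the pooled SD of probe sets of the same gene, and narrowly, by 0.411 against 0.398. Under the settings that could change its value, its difference lay between -1.36 and -1.30. The margin was then under that SD. With each array centred on its median, 3 of the 20 genes were at least 2-fold lower, against 1506 of all 13955. The median of all genes moved to 0.138. Centring shifts every gene of an array by the same amount. The Wnt median therefore had to stay 0.57 below that of all genes.

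Between days 8 and 6, 0 of 20 Wnt pathway genes tested were at least 2-fold higher, against 0.519% of all 13496 genes, and 0 were at least 2-fold lower, against 0.978%. The differences ran from -0.54 for Dkk3 to 0.91 for Axin2, and 13 of the 20 were within 0.25 of no change. The median of 0.02 compares with 0.042 over all genes, and cyclic loess turned it to -0.01. Between days 10 and 8, 4 of 21 genes tested were at least 2-fold lower, against 13.7% of all 13969 genes, and 0 were at least 2-fold higher, against 8.56%. The 4 were Wnt5a (-1.55), Apc (-1.21), Csnk1g3 (-1.05) and Dvl1 (-1.01), and the median was -0.67, against -0.011 over all genes. The 2 comparisons that involve day 10 share that array and are not independent.

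**Figure D2:**
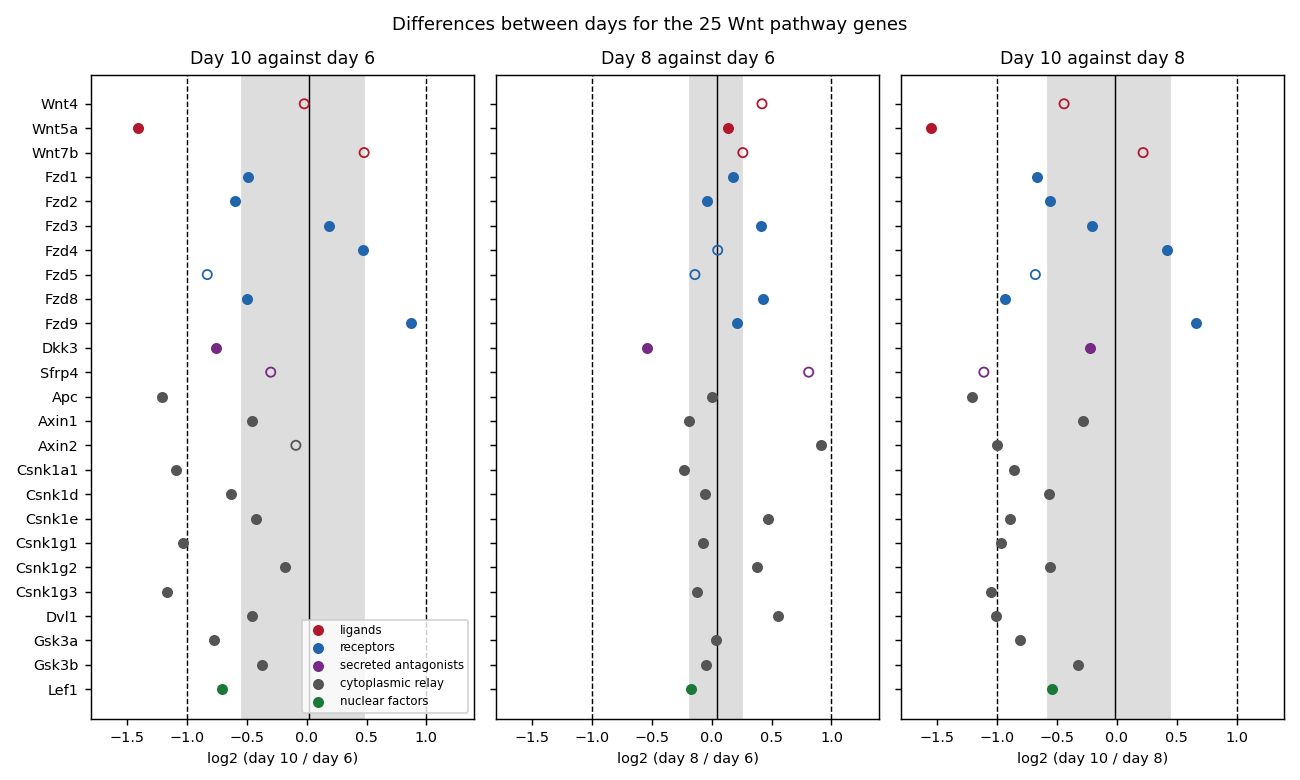
Log2 difference (horizontal axis) of each of the 25 Wnt pathway genes (rows, coloured by role) for day 10 against day 6, day 8 against day 6 and day 10 against day 8. Filled points passed the floor on either array and open points on neither; the grey band spans the quartiles of all genes tested, the solid line their median, and the dashed lines 2-fold. Wnt5a is farthest to the left in both comparisons with day 10, at -1.41 and -1.55.

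The size of a gene moved with its difference. Over 5518 named genes, long genes tended to be lower on day 10 than on day 6 and short genes higher (Spearman's rho -0.43 across genes, which share their arrays and are not replicates). The 20 Wnt pathway genes tested had a median genomic span, introns included, of 29.5 kb, against 20.0 kb over the 5518 named genes tested. Apc (57.6 kb), Csnk1g3 (87.0 kb) and Csnk1g1 (138 kb) are long, and with the trend of the difference on span subtracted they had -0.84, -0.71 and -0.51, short of 2-fold. Csnk1a1 (35.4 kb) then had -0.85. Wnt5a (22.6 kb) kept -1.34, since genes of its span had a trend of only -0.07.

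For 5 of the 6 frizzled genes tested, all of them short, the subtraction lowered the difference. Fzd2 spans 1.91 kb and had -1.02 after it, past 2-fold, and Fzd1 (4.40 kb) and Fzd8 (7.64 kb) had -0.79 and -0.70. Fzd9, also short at 2.31 kb, had 0.48, and Fzd4 (8.87 kb) had 0.31. The long Fzd3 (67.1 kb) was raised, to 0.60. Gsk3a (9.85 kb) had -0.92, while Gsk3b (150 kb) turned to 0.15 and Lef1 (113 kb) had -0.21. In all, 2 genes, Wnt5a and Fzd2, were then at least 2-fold lower out of 20, near the 8.79% of the 5518 named genes, and the median was -0.49, against 0.010 over the named genes.

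**Figure D3:**
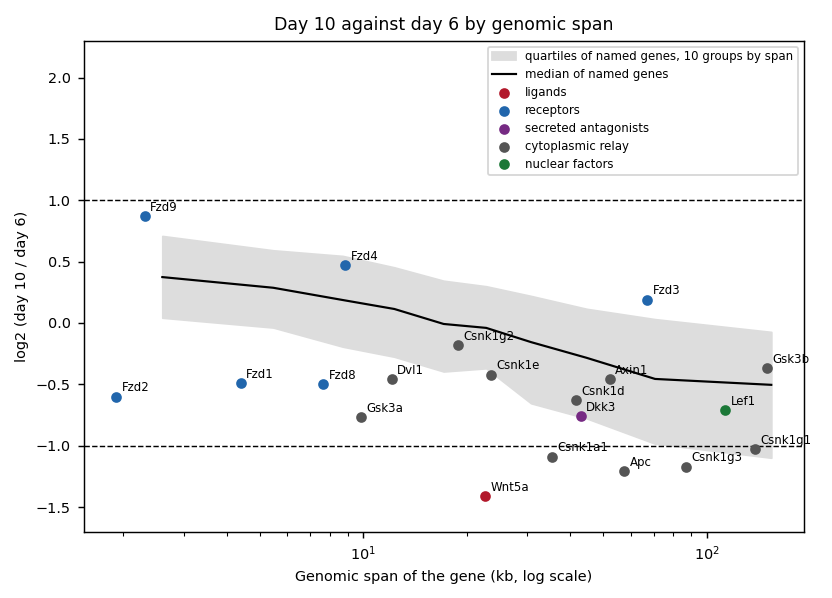
Log2 difference between days 10 and 6 (vertical axis) against the genomic span in kb (horizontal axis, log scale) for the 20 Wnt pathway genes tested, coloured by role. The black line and the grey band are the median and quartiles of named genes in 10 groups by span, and the dashed lines mark 2-fold; Wnt5a at 22.6 kb lies below the band, and Fzd2 at 1.91 kb lies to the left of where it starts.

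Of 4 further lists of the pathway, that of genes acting on Wnt secretion or at the cell surface had the most negative median between days 10 and 6. Of 21 listed modulators, 13 were matched and 12 tested, and 5 were at least 2-fold lower on day 10 than on day 6 and 0 higher, against 12.8% and 8.57% of all genes tested. The median was -0.78, and -0.65 with the span trend subtracted. Of the 5, only Sostdc1, Lgr4 and Tspan12 were above the floor on both days. Sostdc1, a secreted antagonist of Wnt and BMP, had 11.32, 11.06 and 9.69 on days 6, 8 and 10 and was 3.10-fold lower. Lgr4, a receptor for R-spondins, had 12.28, 12.13 and 10.79 and was 2.80-fold lower. Kremen1, which removes Lrp6 from the surface together with Dickkopf proteins, had 8.18, 8.62 and 5.86 and was at least 1.43-fold lower against the floor. Notum, an enzyme that strips the lipid from Wnts, had 8.39, 8.16 and 6.97 and was at least 1.65-fold lower.

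Tspan12, a partner of Fzd4, had 10.88, 10.25 and 9.70 on days 6, 8 and 10, and was 2.27-fold lower on day 10 than on day 6. It spans 75.5 kb and had -0.76 with the span trend subtracted. Day 10 against day 8 gave 4 modulators at least 2-fold lower, against 13.7% of all genes tested, and 0 higher. The median was -0.63, and with the span trend subtracted it was -0.25, with 3 lower, against 8.44% of named genes. Day 8 against day 6 gave 0 either way (median -0.19). Wls, the carrier that brings Wnts to the cell surface, differed by -0.42 between days 10 and 6.

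The beta-catenin machinery moved less. Of 12 genes tested, from 32 listed, 1 was at least 2-fold higher on day 10 than on day 6 and 0 lower (8.57% and 12.8% of all genes), with a median of -0.30. The higher one was Cby1, which binds beta-catenin and keeps it from Tcf and Lef, with 9.34, 9.54 and 10.34 on days 6, 8 and 10 (2.00-fold, and 0.77 with the span trend subtracted). Tle4, a corepressor that occupies Tcf and Lef factors, had 9.92, 10.47 and 9.02 and was 2.74-fold lower on day 10 than on day 8. Ctnnb1, beta-catenin itself, had 13.54, 13.68 and 12.82, a difference of -0.72 between days 10 and 6. Subtracting the span trend gave the list a median of 0.13.

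In the planar polarity and calcium branch, 8 of 26 listed genes were tested. All 8 had a negative difference between days 10 and 6, against 48.7% of all genes (median -0.50). With the span trend subtracted, 5 of the 8 were negative, against 49.3% of named genes (median -0.11). At least 2-fold lower was 1, near the 12.8% of all genes, and 0 were higher, against 8.57%. Camk2d, a calcium and calmodulin dependent kinase that spans 264 kb, had 10.43, 10.57 and 9.19 on days 6, 8 and 10, 2.36-fold lower on day 10 than on day 6. With the trend subtracted it had -0.66.

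Of 32 listed target genes of the pathway, 23 were matched and 17 tested between days 10 and 6. At least 2-fold higher was 1 (Ascl2), and 2 (Snai2 and Notum) were lower, near the 8.57% and 12.8% of all genes tested, and the median was 0.04. Ascl2 and Notum were each under the floor on one of these days. The list holds Axin2, Lef1 and Notum, already described. Snai2, a transcription factor of migrating cells, had 10.71, 10.23 and 9.31 on days 6, 8 and 10 and was 2.65-fold lower on day 10 than on day 6. Ascl2, a target in intestinal stem cells, had 6.47, 7.92 and 7.92, and was at least 1.10-fold higher on each later day than on day 6. Irs1, an adaptor of the insulin receptor, had 7.65, 7.98 and 6.41 and was at least 1.24-fold lower on day 10 than on day 8, and the homeobox gene Msx1, with 7.45, 5.85 and 7.71, was at least 1.06-fold higher on day 10 than on day 8. Myc and Ccnd1, drivers of proliferation, differed by 0.41 and 0.21 between days 10 and 6.

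**Figure D4:**
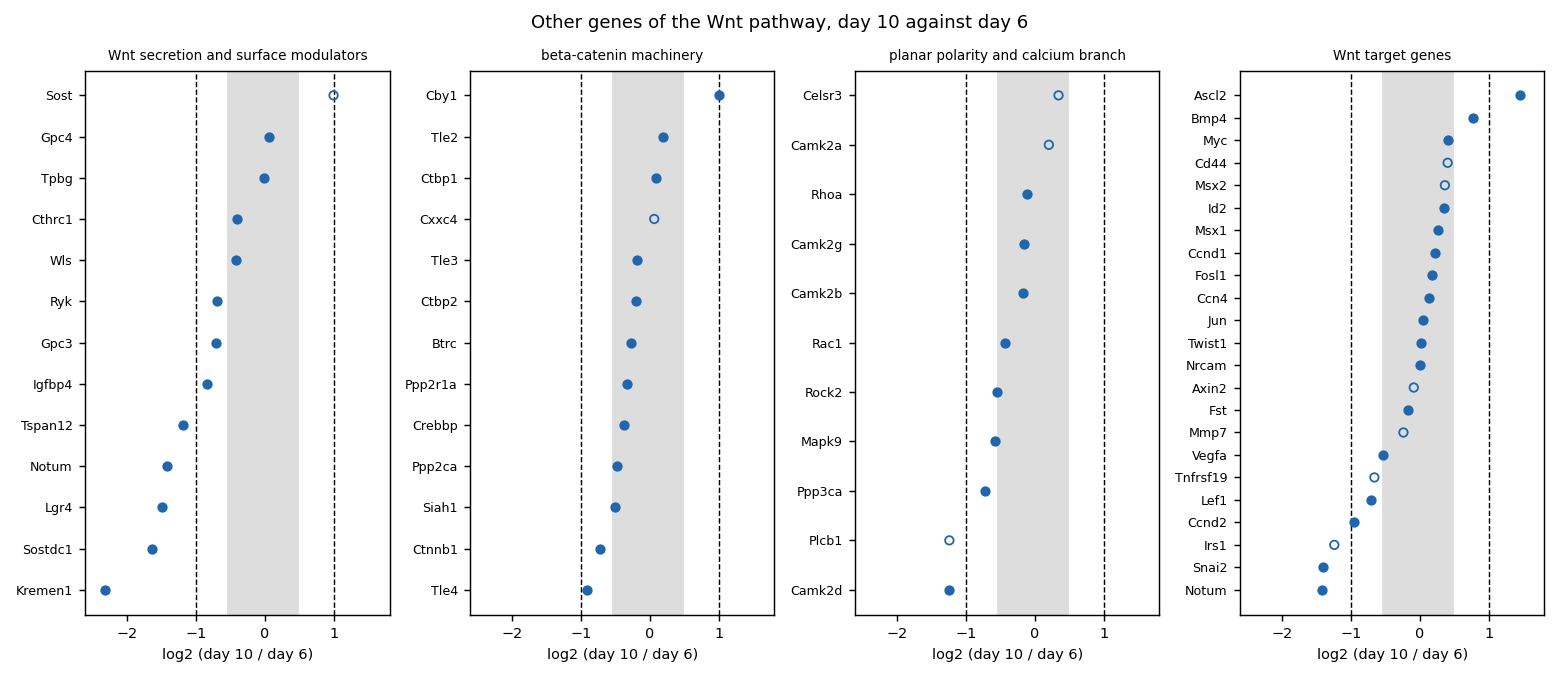
Log2 difference between days 10 and 6 (horizontal axis) of the matched genes in 4 further lists of the Wnt pathway (1 panel each, genes as rows). Filled points passed the floor on either day and open points on neither; the grey band spans the quartiles of all genes tested and the dashed lines mark 2-fold. Kremen1 and Sostdc1 lie farthest to the left among the surface modulators.

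Markers of testis cell types were read against the same shares of all genes tested between days 10 and 6, 12.8% lower and 8.57% higher. A negative difference was found in 48.7% of all genes. A single gene is a large share of such short lists. A summed intensity follows mainly the brightest genes, for the Leydig markers Cyp17a1 (14.01, 13.78 and 12.78 on days 6, 8 and 10). Of 7 Leydig markers matched, 6 were tested and 3 were at least 2-fold lower on day 10 than on day 6. Among the 6, 5 were negative and Insl3 was positive (0.38). The summed intensity of the 7 was 29580, 26477 and 12996 on days 6, 8 and 10. Of 4 endothelial markers, all tested, 3 were at least 2-fold lower (summed intensity 5560, 5932 and 2440). Of 7 fibroblast and matrix genes, all tested, 2 were at least 2-fold lower and all 7 were negative (123630, 117263 and 94850). Of 10 Sertoli markers, all tested, 2 were at least 2-fold higher and 2 lower (94039, 103237 and 92914), and of 6 peritubular markers, all tested, 1 was lower (71845, 67300 and 66570).

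Among 7 germ cell markers matched, 5 were tested, 2 were at least 2-fold higher and 1 lower (14517, 17353 and 19203). Of 6 macrophage markers, all tested, 1 was at least 2-fold higher (10730, 12083 and 13428). Genes of skeletal muscle, and of epididymis, mesothelium and rete, were listed too. Of 7 skeletal muscle genes matched, 4 were tested and 3 were at least 2-fold higher on day 10 than on day 6 (1120, 973 and 3626), with Actn3, Ckm and Myh3 under the floor on all days. Of 7 genes of epididymis, mesothelium and rete, 3 were tested and 2 were at least 2-fold higher (1322, 1142 and 2705), with Crisp1, Defb1, Lcn5 and Pax8 under the floor on all days. The part of these shifts in the Wnt pathway differences was not tested.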

How the data were processed

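For every RefSeq accession the authors deposited a linear intensity on each of the 3 arrays, made with RMA per the submitters' processing notes. Neither its version nor a genome build is stated in the sources at hand. RMA brings the distributions of arrays close to each other, which would hide a shift common to most genes. Values in the series table and in the array files were identical (largest difference 0), and 1 random-sequence control was left out.

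The log2 of each intensity was analysed. The accessions, with versions dropped, were looked up in the RefSeq gene table (GRCr8), which gave names and genomic spans only, and 9747 of 26419 probe sets (36.9%) had a symbol. Where a symbol had several probe sets their log2 values were averaged, and each unnamed one was counted as a gene. The floor was the higher of the array median and the 95th percentile of 1240 olfactory and vomeronasal receptor probe sets. A fold is written as "at least" where the dimmer day lay under the floor, which then took its place. The 2-fold threshold is that of the submitters' design text. The span trend was a lowess fit (fraction 0.3, 3 iterations) on log10 span over named genes tested, with statsmodels 0.14.6. Quantile normalization used numpy 2.4.6 and cyclic loess limma 3.58.1 in R 4.3.3. The calling code was run on simulated data with planted changes past the threshold and noise smaller than the pooled SD of probe sets. That run checks the code and not how reliable the calls on these arrays are.

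All genes of the rule are described, with values for those above the floor on any day and for those below it; from the other pathway lists, genes that reached 2-fold in any comparison are named, and Wls, Ctnnb1, Myc and Ccnd1 were added after their values were seen. The genes and lists were chosen with earlier results of these data known.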

Additional observations from a re-analysis of the deposited data

How the results depend on the processing

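No direction of a 2-fold call turned under any alternative. No paired analysis was possible because each day had 1 array. For day 10 against day 6, the 5 Wnt pathway genes at least 2-fold lower became 3 with each array centred on its median (median difference -0.43), 2 with the span trend subtracted and 2 without the casein kinase 1 genes, which also act outside the pathway. For day 10 against day 8, the 4 lower genes of 21 became 2 with median centring (median -0.55), quantile normalization or an offset of 50. Over all genes, 1577 of 13969, 1671 of 13971 and 1680 of 13969 were lower in these settings, in that order. Each is a larger share than 2 of 21. The median was -0.57 with cyclic loess and -0.56 without the casein kinase 1 genes. For day 8 against day 6, the median was 0.09 without them. Wnt5a was at least 2-fold lower in both comparisons with day 10 under every alternative run, and Apc under all but the span subtraction. Changing the floor, taking the brightest probe set and leaving out the casein kinase 1 genes could not alter either gene's value. Each of the pair has 1 probe set and lay above the floor on every day. The other 70 of 81 values of these counts and medians moved by less than 1.5 times (counts) or less than the pooled SD of probe sets over the square root of the number of genes (medians). Taking the brightest probe set could move none of these values, because each Wnt pathway gene has 1. The number of arrays, 1 per day, limits the precision of all these counts and medians.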

Other observations

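Sfrp4, under the floor on all 3 days but above the receptors' 95th percentile on each, had an intensity of 91.0, 159 and 73.8 on days 6, 8 and 10. Axin2 had 131, 245 and 123 on the same days. With the floor lowered to that percentile, Sfrp4 was counted among the genes at least 2-fold lower on day 10 than on day 8 (-1.11). That gave 5 of 23 Wnt pathway genes tested, against 2551 of all 18512 genes tested at that floor. At these low levels the number of arrays and the nearness of background limit what can be read from the values.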
